A study of Mus musculus with 6 samples.

Results

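The epithelial sodium channel ENaC and the sodium pump Na,K-ATPase are described here through 8 genes, Scnn1a, Scnn1b, Scnn1g, Atp1b1, Atp1b3, Fxyd2, Fxyd3 and Fxyd4, chosen by symbol from the 57127 genes of a count table. Of the 8 genes, 7 were abundant enough to be tested, and Fxyd2 was not. The table holds whole epididymis of adult C57BL/6 mice, in 3 libraries from wild-type (WT) animals and 3 from animals lacking occludin, a tight junction protein (Ocln-KO). The loss of Ocln was inherited and not limited to 1 cell type, and the study's methods also mention pooling of RNA, so n counts libraries. No treatment is given for either genotype, and the comparison asks how transcript levels differ where occludin is missing.

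In sodium-absorbing epithelia, sodium enters the cell from the lumen through ENaC, a channel built of alpha, beta and gamma subunits, and leaves at the basolateral side through Na,K-ATPase, which exchanges it for potassium. The pump has a catalytic alpha subunit, a beta subunit needed for folding and delivery to the membrane, and often a small FXYD protein that tunes its kinetics. In the epididymis, absorption of sodium and water from the fluid that leaves the testis concentrates sperm along the duct.

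Scnn1a and Atp1b1 had lower values in each Ocln-KO library than in any WT library, whereas Atp1b3 had close to equal means in both genotypes and Fxyd4 was spread widely among the Ocln-KO libraries. None of the 7 tested genes passed a false discovery rate (FDR, the p-value adjusted by Benjamini-Hochberg over all 19691 genes tested) of 0.05 in edgeR's quasi-likelihood test, against 8.95% of all genes tested. That is 0 lower against 5.04% of all genes and 0 higher against 3.91%. At an unadjusted p under 0.05 there were 2 of 7, Scnn1a and Atp1b1, against 29.1% of all genes. DESeq2 called both genes lower in Ocln-KO by FDR, as it did 1643 of the 20844 genes it tested, and limma-voom called neither. The DESeq2 log2 fold changes of -0.91 and -0.70 fell short of the 2-fold change that the authors also required. The groups did not overlap, with Ocln-KO lower, for the same 2 of 7 genes, against 19.4% of all genes, and no tested member lay without overlap on the higher side, against 16.9%. The median log2 fold change was 0.04 over the 7 genes and 0.01 over all genes tested.

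The libraries held between 30646424 and 38870780 counts. With edgeR's TMM factors the counts were scaled to CPM, the unit that corrects for depth, and 1 count equalled between 0.0267 and 0.0314 CPM. Ocln itself had 85.5 ± 6.51 CPM for WT against 15.1 ± 0.231 CPM for Ocln-KO (SD, n = 3 each), and its log2 fold change was -2.50 (SE 0.09, FDR 0.000108 from edgeR's quasi-likelihood test). Ocln-KO replicate 3 stood apart on the leading principal component (47.2% of the variance), at 86.3 against 17.7 and 29.1 for the other Ocln-KO libraries and -52.8 to -37.0 for WT. The extraction notes of the samples name a brain region, but the neuronal marker Snap25 had at most 0.0628 CPM in any library and the epididymal secretory gene Crisp1 had between 4439 and 16768 CPM. The p-values measure the spread between these libraries only.

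Upstream sequence is shown for the genes that represent the contrast between the pump's beta subunits and for a low ENaC subunit. Below are the 250 bases before the RefSeq transcription start in GRCm38.p6, read 5′ to 3′ on the strand of the gene, with capitals for GGGCGG (the core of a GC box) or CCAAT on either strand.
Atp1b1, chr1:164458356-164458605, minus strand: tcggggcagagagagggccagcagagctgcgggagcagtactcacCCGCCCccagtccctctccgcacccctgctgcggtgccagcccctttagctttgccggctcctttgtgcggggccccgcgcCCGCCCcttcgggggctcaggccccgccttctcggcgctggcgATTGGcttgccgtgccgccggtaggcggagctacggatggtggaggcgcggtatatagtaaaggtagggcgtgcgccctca
Atp1b3, chr9:96364432-96364681, minus strand: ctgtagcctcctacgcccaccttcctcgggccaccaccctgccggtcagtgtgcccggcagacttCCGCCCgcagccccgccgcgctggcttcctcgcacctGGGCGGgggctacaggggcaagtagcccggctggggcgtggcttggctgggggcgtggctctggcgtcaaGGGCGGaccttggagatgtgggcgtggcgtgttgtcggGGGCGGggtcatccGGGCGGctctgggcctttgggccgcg
Scnn1b, chr7:121864788-121865037, plus strand: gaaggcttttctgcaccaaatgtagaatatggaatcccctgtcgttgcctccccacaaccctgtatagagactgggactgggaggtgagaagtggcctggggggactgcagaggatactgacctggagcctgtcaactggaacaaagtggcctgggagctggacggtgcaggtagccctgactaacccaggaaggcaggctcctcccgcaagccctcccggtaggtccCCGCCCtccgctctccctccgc

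The Atp1b1 sequence had 70.4% G and C, 24 CpG, 2 matches to GGGCGG and 1 to CCAAT. The Atp1b3 sequence had 73.6% G and C, 24 CpG and 5 matches to GGGCGG. Both beta subunit genes thus carried far more CpG than the median of 6 over 32851 mouse promoters of equal length, whose median G and C content was 52.4%. The Scnn1b sequence was nearer to that median, with 60.8% G and C, 7 CpG and 1 match to GGGCGG. The window of Scnn1g, not printed, had 65.2% G and C, 16 CpG and 2 matches to GGGCGG. Of all promoters, 32.74% held GGGCGG and 33.85% held CCAAT on either strand. None of the 3 printed windows held TATAAA (the core of a TATA box) or TGTTCT (the hexamer of steroid receptor elements) on either strand. These were found in 12.37% and 16.08% of all promoters. Only exact matches were counted, and the Atp1b1 window holds the close variant TATATA near its 3′ end. RefSeq promoter entries matched 6 of the 8 genes, with 2 starts for Atp1b3 of which the upstream one is shown, and none matched Scnn1a or Fxyd2. The window of the other Atp1b3 start had 76.8% G and C, 35 CpG and no match to GGGCGG.

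Scnn1a, on chromosome 6 from 125314271 to 125344943 (plus strand, GRCm38), encodes the alpha subunit, which ENaC needs to conduct. The WT libraries had 70.1, 79.0 and 74.9 CPM, and the Ocln-KO libraries had 41.7, 54.3 and 22.9 CPM. Each Ocln-KO library was thus below each WT library, and Ocln-KO replicate 3 was the lowest of the 6. The means were 74.7 ± 4.45 CPM for WT against 39.6 ± 15.8 CPM for Ocln-KO (SD, n = 3 each). On average Ocln-KO differed by -0.92 on the log2 scale (SE 0.27), or 1.89-fold lower, with a 95% interval of 0.345 to 0.814 times the WT level before adjustment. By edgeR's quasi-likelihood test the unadjusted p was 0.00927 and the FDR 0.0711, which misses the threshold. The FDR was 0.0257 without Ocln-KO replicate 3, at a log2 fold change of -0.64, and 0.189 without WT replicate 3. In bulk tissue, fewer cells of a type and less RNA per cell cannot be told apart, for this gene and for all that follow.

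Scnn1b and Scnn1g lie on chromosome 7, from 121865038 to 121918728 and from 121734420 to 121768482, and encode the beta and gamma subunits, which raise the current that the alpha subunit carries. Scnn1b had 46, 29 and 26 counts in WT and 31, 20 and 20 in Ocln-KO, which equal 1.23, 0.850 and 0.700 CPM and 0.966, 0.628 and 0.592 CPM. The ranges overlapped, and the difference of -0.35 on the log2 scale (SE 0.42, FDR 0.629 from edgeR's quasi-likelihood test) had a 95% interval of 0.402 to 1.54 times the WT level. Scnn1g had 9, 23 and 17 counts in WT and 36, 18 and 35 in Ocln-KO, or 0.241, 0.674 and 0.458 CPM and 1.12, 0.565 and 1.04 CPM. Ocln-KO replicates 1 and 3 were above all WT libraries, while Ocln-KO replicate 2 lay inside the WT range. The log2 fold change of Scnn1g was 0.99 (SE 0.52, FDR 0.248 from the same test), with a 95% interval of -0.21 to 2.18. These 2 subunits rest on at most 46 counts per library, and exons of Scnn1b overlap the span of Cog7 on the other strand. Whether they meet exons of the other gene was not examined, here and below. The kit kept strand, but the strand setting of the counting is not given in the sources used here.

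**Figure D1:**
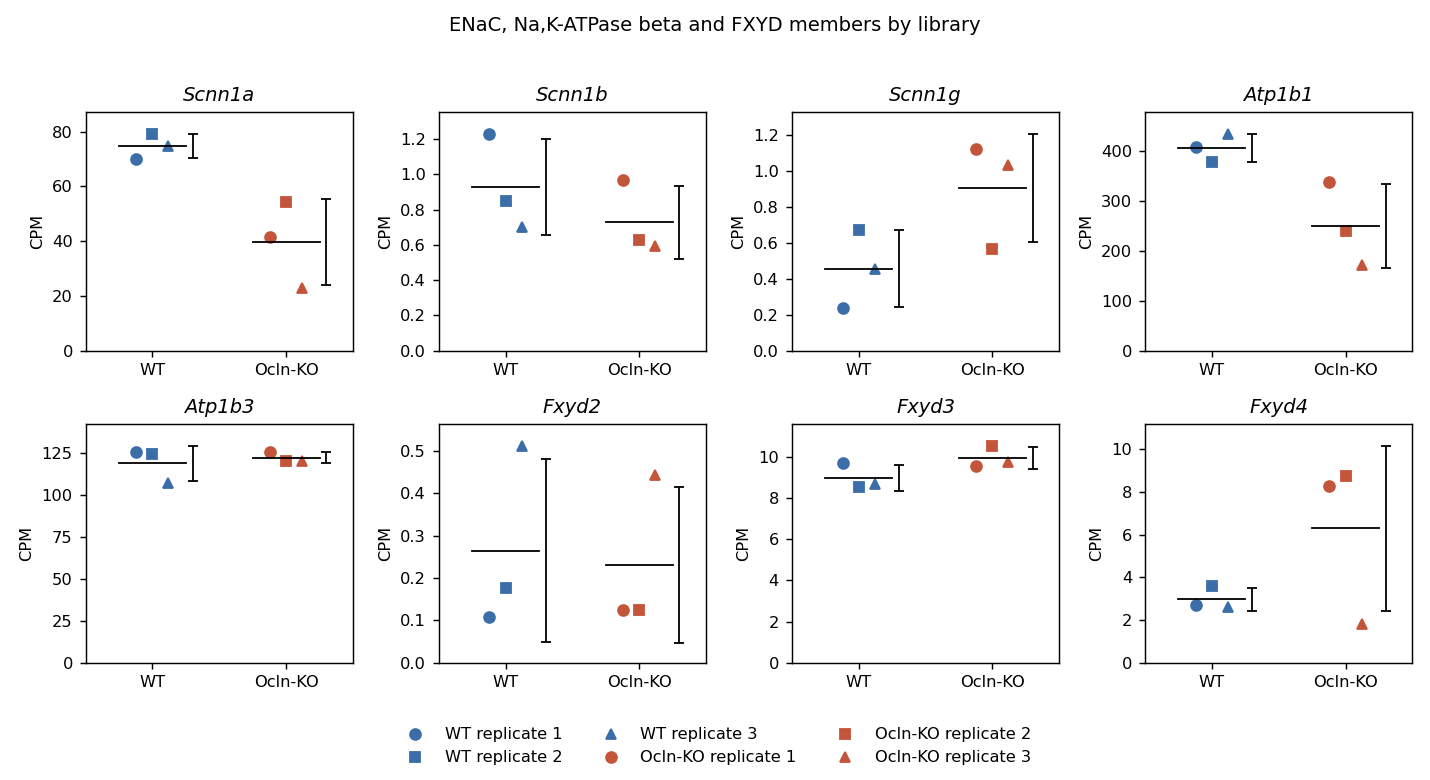
Level of each of the 8 genes in the 6 libraries, in CPM on axes that start at 0; points are libraries, horizontal lines are genotype means and the bars beside them are ± 1 SD (n = 3). Scnn1a and Atp1b1 are the panels in which all 3 Ocln-KO points lie below all 3 WT points, and in the Fxyd4 panel 1 Ocln-KO library (1.83 CPM) lies below WT while the other 2 (8.29 and 8.76 CPM) lie above it.

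Atp1b1, on chromosome 1 from 164437099 to 164458355, encodes the beta1 subunit, which pairs with the catalytic alpha subunit in most epithelia, and its GC-rich upstream sequence is printed above. The WT libraries had 407, 377 and 433 CPM. Values in Ocln-KO were 337, 239 and 170 CPM, all below the WT range, with replicate 3 again the lowest. The means were 406 ± 28.0 CPM and 249 ± 83.7 CPM (SD, n = 3 each), and the SD in Ocln-KO was therefore larger than in WT, as for Scnn1a. The log2 fold change was -0.70 (SE 0.22), or 1.63-fold lower, with a 95% interval of -1.21 to -0.19 before adjustment. The unadjusted p was 0.0130 and the FDR 0.0834 by edgeR's quasi-likelihood test. The FDR was 0.0220 without Ocln-KO replicate 1, at a log2 fold change of -0.98. Exons of Atp1b1 overlap the span of Nme7 on the other strand.

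Atp1b3, on chromosome 9 from 96332655 to 96364431, encodes the beta3 subunit, an alternative partner of the catalytic subunit. The WT libraries had 125, 124 and 107 CPM, and the Ocln-KO libraries had 126, 120 and 120 CPM. Ranges overlapped, and the means of 119 ± 10.3 and 122 ± 3.13 CPM (SD, n = 3 each) differed by less than the SD in WT. The log2 fold change was 0.04 (SE 0.09, FDR 0.812 from edgeR's quasi-likelihood test). Its 95% interval, 0.888 to 1.19 times the WT level, was the narrowest among the 7 tested genes.

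Fxyd4, on chromosome 6 from 117933558 to 117937714, encodes a regulator of the pump also known as corticosteroid hormone-induced factor, which in the kidney collecting duct raises the affinity of the pump for sodium. The WT libraries had 2.73, 3.58 and 2.61 CPM, and the Ocln-KO libraries had 8.29, 8.76 and 1.83 CPM. Ocln-KO replicates 1 and 2 were above every WT library and Ocln-KO replicate 3 was below every WT library, so the ranges overlapped. The means were 2.97 ± 0.526 CPM for WT against 6.29 ± 3.87 CPM for Ocln-KO (SD, n = 3 each). The log2 fold change was 1.08 (SE 0.52, FDR 0.209 from edgeR's quasi-likelihood test), with a 95% interval of -0.12 to 2.28. Without Ocln-KO replicate 3, the library that stood apart, it was 1.52 with an FDR of 0.00703, so a single library decides whether Fxyd4 passes.

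Fxyd3, on chromosome 7 from 31070535 to 31076697, encodes a pump regulator of epithelia also called Mat-8. The WT libraries had 9.70, 8.56 and 8.70 CPM and the Ocln-KO libraries had 9.57, 10.5 and 9.77 CPM. WT replicate 1 lay above Ocln-KO replicate 1, so the ranges overlapped, and the log2 fold change was 0.15 (SE 0.14, FDR 0.532 from edgeR's quasi-likelihood test) with a 95% interval of -0.18 to 0.47. Exons of Fxyd3 overlap the span of Lgi4 on the other strand. Fxyd2, on chromosome 9 from 45399709 to 45410278, encodes the gamma subunit of the pump, which is abundant in the kidney. It had 4, 6 and 19 counts in WT and 4, 4 and 15 in Ocln-KO, at most 0.512 CPM, and was too low for the test.

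**Figure D2:**
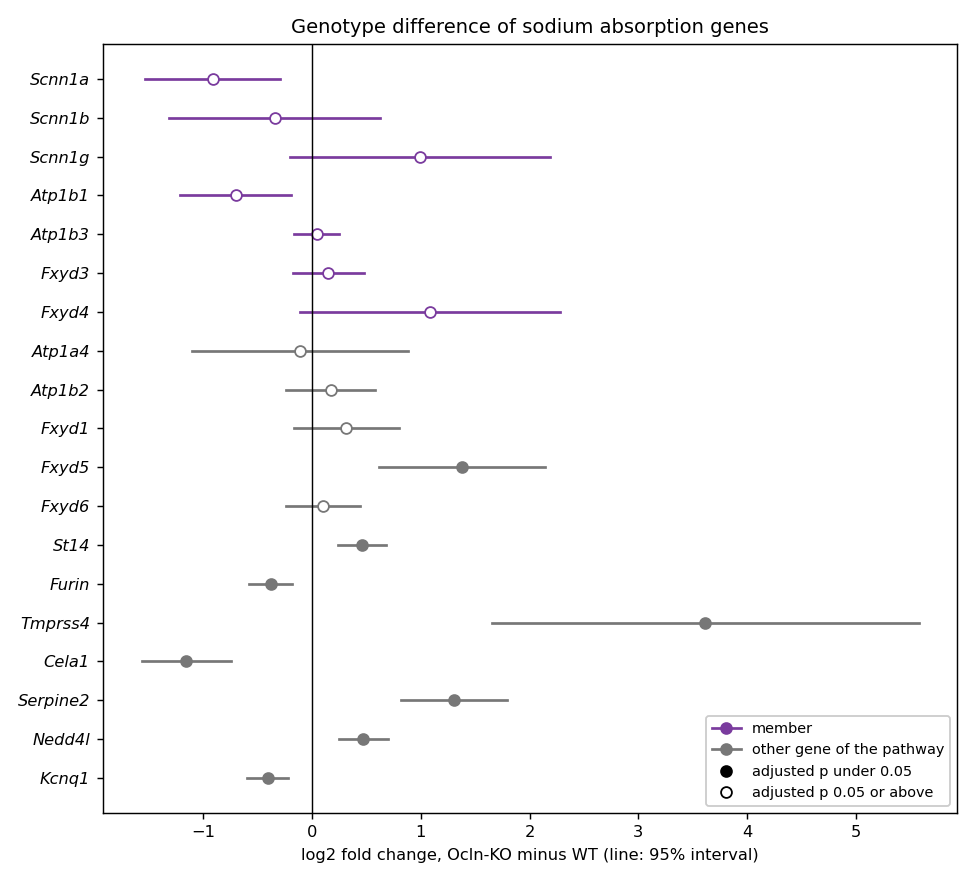
Log2 fold change of Ocln-KO against WT for the 7 tested members, 5 other tested Na,K-ATPase and FXYD genes and the 7 further sodium absorption genes with an FDR under 0.05; points are estimates, filled where the FDR is under 0.05, and lines are 95% intervals before adjustment. The intervals of Scnn1a and Atp1b1 end below 0 with open points, and among the pump and FXYD genes plotted Fxyd5 (1.38) has a filled point.

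Of 7 other genes of the pump and of the FXYD family that were listed, 5 were tested, and 1, Fxyd5, was higher at an FDR under 0.05. Fxyd5, which encodes dysadherin, a pump regulator that also affects cell adhesion, had 2.19, 2.93 and 2.72 CPM in WT. Values in Ocln-KO were 3.80, 8.63 and 7.93 CPM, all above the WT range. Fxyd5 rose by a log2 fold change of 1.38 (SE 0.33, FDR 0.0441 from edgeR's quasi-likelihood test). It missed the threshold with limma-voom (FDR 0.0691) and when any library other than Ocln-KO replicate 1 was left out, from 0.0619 without Ocln-KO replicate 3 to 0.154 without WT replicate 1.

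The subunits and regulators listed here that are better known from muscle, nerve and sperm did not pass edgeR's quasi-likelihood test, with FDR values between 0.362 (Fxyd1) and 0.891 (Atp1a4). Atp1a4, the alpha isoform of sperm, had 4.88 ± 1.25 CPM for WT against 4.52 ± 2.38 CPM for Ocln-KO (SD, n = 3 each). Its lowest value was in Ocln-KO replicate 3, where the summed level of 5 spermatid and sperm transcripts was also lowest, at 30.4 CPM against 62.4 to 99.1 CPM in WT and 115 and 135 CPM in the other Ocln-KO libraries. Atp1b2, the beta2 isoform of glia and neurons, had 16.7 ± 1.29 and 18.8 ± 4.37 CPM. Fxyd1 (phospholemman, a regulator in muscle) had 4.93 ± 0.779 and 6.13 ± 0.888 CPM, and Fxyd6, known from brain and inner ear, had 23.2 ± 2.48 and 24.8 ± 4.19 CPM. Fxyd7 was too low for the test and Atp1b4 had no count in any library.

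Per kilobase of annotated exon, which allows levels of different genes to be set side by side, the WT order of 14 genes with a count began with Atp1b1 (132 CPM per kilobase), Atp1b3 (49.7) and Scnn1a (18.1). Each of these 3 was apart from the next in all 3 WT libraries. Fxyd6 followed at 5.64 and Atp1b2 at 4.10 CPM per kilobase, also without overlap. Fxyd1, Fxyd3, Fxyd4 and Atp1a4 formed a run of overlapping neighbours between 2.25 and 1.33 CPM per kilobase. Fxyd7 (0.677) and Fxyd5 (0.624) overlapped each other as well. The lower ENaC subunits were near the end, Scnn1b at 0.352 and Scnn1g at 0.153 CPM per kilobase, and Scnn1g did not differ beyond its spread from Fxyd2 (0.0661). The length model matters for parts of this order. With the median length of the coding transcripts, an alternative chosen after the data were seen, Fxyd3 rose from 1.85 to 20.5 CPM per kilobase, directly after Scnn1a (24.3).

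**Figure D3:**
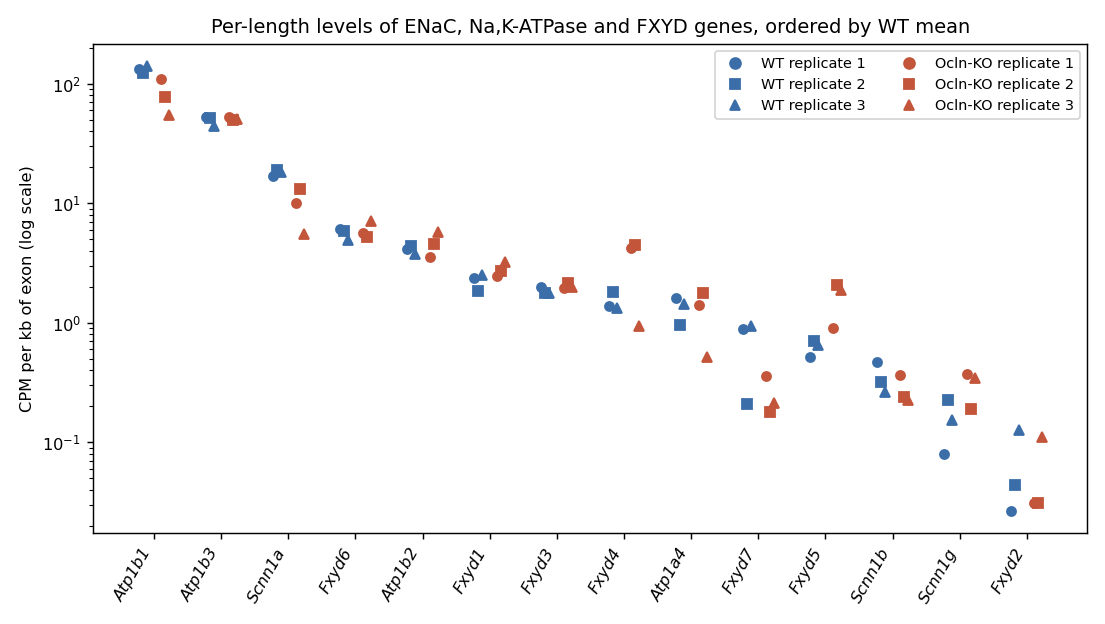
Level per kilobase of exon of the ENaC, Na,K-ATPase and FXYD genes in each library, in CPM per kilobase on a log axis with 1 point per library, ordered by the WT mean. In WT, Atp1b1, Atp1b3 and Scnn1a stand above the rest of those plotted, and Scnn1b and Scnn1g are at most 0.467 CPM per kilobase in every library.

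Within each library, the make-up of the channel and the pump was compared as ratios per kilobase, which do not depend on the scaling between libraries. With 3 libraries against 3, an exact two-sided permutation test cannot give a p under 0.1. Scnn1a made up between 96.9% and 97.7% of the ENaC transcripts per kilobase in WT and between 90.7% and 96.8% in Ocln-KO. Scnn1g relative to Scnn1a was 0.474%, 1.18% and 0.844% in the WT libraries and 3.72%, 1.44% and 6.25% in the Ocln-KO libraries, without overlap. The mean log2 ratio was 2.05 higher in Ocln-KO (exact permutation p = 0.1, 0.15 after Benjamini-Hochberg adjustment over the 3 ratios). Scnn1b relative to Scnn1a was 2.75%, 1.69% and 1.47% in WT and 3.64%, 1.82% and 4.06% in Ocln-KO, with overlap (log2 difference 0.66, exact permutation p = 0.2, adjusted 0.2).

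For the pump, Atp1b3 relative to Atp1b1 was 39.7%, 42.4% and 31.8% in WT and 48.1%, 64.8% and 91.0% in Ocln-KO. These did not overlap, and the log2 difference was 0.80 (exact permutation p = 0.1, adjusted 0.15). Atp1b3 thus took between 23.7% and 29.1% of the beta subunit transcripts per kilobase in WT and between 31.8% and 45.2% in Ocln-KO, while its own level overlapped between the genotypes. Among the FXYD transcripts per kilobase, Fxyd4 took 10.5% to 14.9% in WT, and 27.1%, 26.5% and 6.01% in the 3 Ocln-KO libraries.

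**Figure D4:**
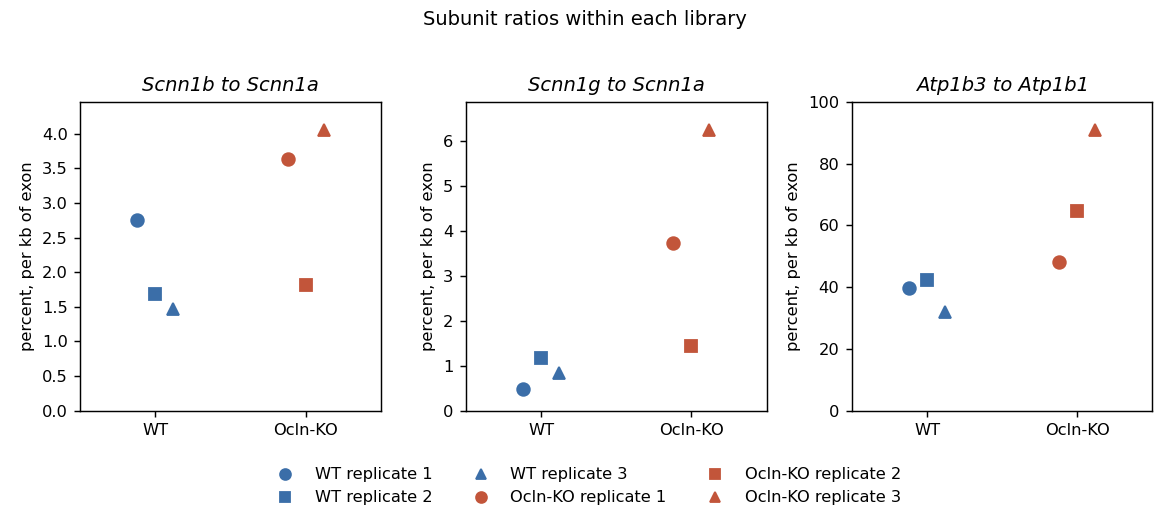
Ratio of 2 subunits per kilobase of exon within each library, in percent on axes that start at 0; points are libraries. Scnn1g to Scnn1a and Atp1b3 to Atp1b1 are higher in each Ocln-KO library than in each WT library, and Scnn1b to Scnn1a overlaps.

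Around the channel and the pump, 46 further genes of sodium absorption were listed, of which 40 were tested. At an FDR under 0.05, 3 were lower and 4 were higher in Ocln-KO, or 17.5% of those tested. With the pump and FXYD genes above, 8 of 45 (17.8%) passed, against 8.95% of all genes, and the median log2 fold change of the 45 was -0.08. None of the list passed when any WT library was left out, although between 15 and 17 of it had an unadjusted p under 0.05 then. Of the 20277 to 20316 genes tested in those settings, 19 to 145 were lower and 4 to 85 higher by FDR. Without Ocln-KO replicate 2, 2 genes of the list passed, against 342 lower and 220 higher of 20362 genes tested. With DESeq2, 12 of 47 passed, against 1643 lower and 1536 higher of 20844 genes tested.

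Proteases that cleave and activate ENaC, with their inhibitors, held 5 of the 7 calls, and all 9 of this group were tested. St14, which encodes matriptase, a membrane protease acting upstream of prostasin, rose from 134 ± 3.38 to 184 ± 18.6 CPM (SD, n = 3 each, log2 fold change 0.46, FDR 0.0322 from edgeR's quasi-likelihood test). Tmprss4, another membrane protease able to activate the channel, rose from 9, 1 and 33 counts in WT to 131, 249 and 87 counts in Ocln-KO (log2 fold change 3.62, FDR 0.0416 by the same test). Its exons overlap the span of BC049352 on the other strand. Serpine2, which encodes protease nexin-1, an inhibitor of serine proteases, rose from 8.37 ± 1.86 to 20.6 ± 3.90 CPM (FDR 0.0201 by the same test). Furin, the convertase that cuts the alpha and gamma subunits on their way to the surface, fell from 255 ± 15.6 to 196 ± 5.44 CPM (log2 fold change -0.38, FDR 0.0370 by edgeR). Exons of Furin overlap the span of Gm44851 on the other strand. Cela1, an elastase, fell from 8.57 ± 0.236 to 3.84 ± 0.498 CPM (log2 fold change -1.16, FDR 0.0175 by edgeR). Calls in this group thus went in both directions, with activators among the genes that rose and among those that fell.

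Of the 11 genes that control turnover and phosphorylation of ENaC, 1 passed. It was Nedd4l, whose product is the ubiquitin ligase that removes the channel from the surface, and it rose from 144 ± 11.6 to 199 ± 14.2 CPM (SD, n = 3 each, log2 fold change 0.47, FDR 0.0318 from edgeR's quasi-likelihood test). Exons of Nedd4l overlap the spans of genes on the other strand, among them A330084C13Rik. Of the 5 tested genes for basolateral potassium channels, which return the potassium taken up by the pump, 1 passed. Kcnq1 fell from 67.9 ± 0.836 to 51.1 ± 2.53 CPM (log2 fold change -0.41, FDR 0.0281 by edgeR), and its exons overlap the span of Kcnq1ot1 on the other strand. None of the 6 genes of the aldosterone pathway passed in edgeR's quasi-likelihood test. At an unadjusted p under 0.05 there were 2, against 29.1% of all genes. They were Nr3c1 (log2 fold change 0.27) and Hsd11b2 (1.61), both higher in Ocln-KO. Among these 6, Sgk1, the aldosterone-induced kinase that restrains Nedd4l, is given here after its values were seen. It had 165, 124 and 145 CPM for WT against 97.0, 117 and 36.4 CPM for Ocln-KO, with Ocln-KO replicate 3 the lowest. The groups did not overlap, with Ocln-KO lower, as for 19.4% of all genes. The log2 fold change of Sgk1 was -0.80. Its unadjusted p was 0.0614 and its FDR 0.194 by edgeR's quasi-likelihood test (FDR 0.295 with DESeq2). None of 5 tested genes for other routes of apical sodium entry and none of 4 tested ENaC or H,K-ATPase relatives passed, with 1 and 0 of them at an unadjusted p under 0.05.

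Some markers of the cells that make up the organ differed between genotypes too, and their part in the values above was not tested. Of all genes tested, 5.04% were lower and 3.91% higher at an FDR under 0.05, and 29.1% had an unadjusted p under 0.05. Of 6 clear cell markers 4 were lower at an FDR under 0.05, with a summed level of 119 to 144 CPM for WT against 76.9, 78.6 and 110 CPM for Ocln-KO. Of 5 principal cell markers 1, the water channel gene Aqp9, was lower, with sums of 21289 to 24881 CPM for WT against 15230, 18655 and 11025 CPM for Ocln-KO. Ocln-KO replicate 3, with the lowest Scnn1a and Atp1b1, thus also had the lowest sum of principal cell markers. Crisp1 and Adam7 held most of that sum. Crisp1 was lowest there, at 4439 CPM against 9957 and 9160 CPM in the other Ocln-KO libraries. Adam7 was not, at 6406 CPM against 5071 and 9304 CPM. The less abundant Aqp9, Cftr and Slc9a3 were lowest in that library. In Ocln-KO replicate 3 the clear cell sum, the highest among Ocln-KO, held 56.7 CPM of Car12, against 30.7 and 36.4 CPM in the other Ocln-KO libraries. Foxi1 (24.0 against 15.7 and 17.9 CPM) and Atp6v0d2 (10.6 against 7.51 and 5.46 CPM) were also highest there among Ocln-KO. Atp6v1b1, Atp6v1g3 and Atp6v0a4 were not. Car12 was the 1 clear cell marker whose estimate was not lower in Ocln-KO (log2 fold change 0.21, FDR 0.546 from edgeR's quasi-likelihood test). The 8 general epithelial markers, of which 1 was higher, summed to 1874 to 2144 CPM for WT against 2019, 1751 and 1573 CPM for Ocln-KO. Mononuclear phagocyte markers, with 0 of 6 past the threshold in edgeR and 5 at an unadjusted p under 0.05, summed to 118 to 140 CPM for WT against 145, 168 and 315 CPM for Ocln-KO. The 5 smooth muscle markers, 1 of them higher, summed to 1152 to 1387 CPM for WT against 1568 to 2082 CPM for Ocln-KO. The regional marker Gpx5, made mainly in the caput, had 54.5, 172 and 26.3 CPM for WT against 256, 7264 and 10039 CPM for Ocln-KO. It was the 1 of 4 tested markers of the initial segment and caput that passed. Among the others listed, Rnase9 had 2047 to 3017 CPM for WT and 1511 to 3367 CPM for Ocln-KO. Lcn8, Cst8, Rnase10 and Lcn9 had at most 2.30 CPM in any library. Whether the libraries held the regions of the duct in equal parts was not tested. Of the tested markers of other cells, 1 of 5 for basal cells, 1 of 4 for lymphocytes and 1 of 5 for neurons and glia were higher and 1 of 3 for blood was lower. None passed in edgeR among 5 for adipocytes, 3 for endothelium and 5 for spermatids and sperm, with 3, 1 and 0 at an unadjusted p under 0.05.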

How the data were processed

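Total RNA was depleted of rRNA and sequenced from directional libraries. The authors aligned reads to GRCm38 with HISAT2 (version 2.0.4 in the submitters' processing notes) and assigned them to genes with HTSeq, and the table the authors deposited gives the number of reads per gene as a raw count, with no normalization. The table holds 57127 genes, of which 32046 had a count. Columns were matched to samples by name, with 0 unmatched. Spreadsheet dates stood in place of 27 symbols, none of them used here.

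Testing used edgeR 4.0.16 under R 4.3.3 (filterByExpr, TMM factors, glmQLFit and glmQLFTest, Benjamini-Hochberg adjustment over 19691 genes, threshold 0.05), the genotypes as unpaired groups. The SE was obtained from the log2 fold change and the F statistic, and intervals are 95%. Total counts ran from 30646424 to 38870780, so 3 counts equal 0.0802 to 0.0942 CPM, which covers counting error only. Exon lengths came from a GRCm38 gene annotation, and positions and promoter sequences from RefSeq GRCm38.p6. Ratios were compared by exact permutation over libraries.

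The genes named are the 8 members, the tested genes of the pump and FXYD families (some are not reported here), and other sodium absorption genes with an FDR under 0.05. Sgk1, Nr3c1 and Hsd11b2 were named after their values were seen, and of these only Sgk1 is followed through the alternatives below. The members, lists and tests were chosen with earlier results of these data known. Alternatives were DESeq2 1.42.0, limma-voom (limma 3.58.1), RLE factors, scaling by total counts only, and TMM factors computed after dropping the 20 top genes. Further alternatives were omission of the count filter, a minimum of 10 counts per library, blocking on replicate number, and leaving out each library. The authors used DESeq2, with no version named in the paper, and also required a fold change over 2 or under 0.5. On simulated counts of 19265 tested genes, edgeR recovered 49% of 2-fold and 77% of 4-fold changes at an FDR under 0.05 and called 6 unchanged genes. Proteomes and lipids of the study are not analysed here.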

Additional observations from a re-analysis of the deposited data

How the results depend on the processing

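No member passed an FDR of 0.05 in edgeR's quasi-likelihood test, and the number lower was 2 with DESeq2, 2 without the count filter, and between 0 and 1 when 1 library was left out; the number higher was between 0 and 1 when 1 library was left out. Those lower were Scnn1a (DESeq2 FDR 0.00432, 0.0246 without the filter) and Atp1b1 (0.0111 and 0.0381), and over the 14 alternatives their FDR ran from 0.00432 to 0.189 and from 0.0111 to 0.221. Of 97 alternative values for 7 members, 89 kept direction and side of the threshold, 7 passed it newly and 1 turned sign, Atp1b3 at -0.028 without WT replicate 3 (0.080 without WT replicate 1, the highest when 1 library was left out). Of 181 values for 13 other named genes, 133 were unmoved in this sense, 44 no longer passed and 4 turned sign: Atp1a4 to 0.047 without WT replicate 1 and 0.26 without Ocln-KO replicate 3 (lowest -0.47), Atp1b2 to -0.014 (highest 0.33) and Fxyd6 to -0.048 (highest 0.19), both without Ocln-KO replicate 3. Among the 45 other sodium absorption genes, 3 were lower and 5 higher. The number lower was 6 with DESeq2, 1 with total counts only and 0 to 4 when 1 library was left out, and the number higher was then 0 to 6. Over all genes, 992 were lower and 770 higher, with DESeq2 1643 and 1536, with total counts only 1175 higher, and with 1 library left out 19 to 944 lower and 4 to 782 higher. Same-numbered libraries did not deviate together (correlations -0.05, -0.03 and -0.0026, against -0.08 to 0.13 for libraries of different number). The study's methods name 3 pairs of WT and Ocln-KO mice, and these correlations cannot tell whether the numbers follow those pairs. With a replicate block, 0 members, 0 of the other sodium absorption genes lower and 0 higher (16 at an unadjusted p under 0.05), and 31 lower and 10 higher of all genes passed. The ratio differences kept their sign when any library was left out, from 0.57 to 1.03 for Atp1b3 to Atp1b1, from 1.57 to 2.63 for Scnn1g to Scnn1a, and from 0.44 to 1.02 for Scnn1b to Scnn1a. The causes were not tested. Scnn1b, Scnn1g and Fxyd2 are limited by depth, at most 46, 36 and 19 counts.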
